A study of Epimedium pseudowushanense with 3 samples.

Results

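The comparison described here covers the growth of the embryo inside the seed of Epimedium pseudowushanense, a herbaceous plant related to barberry, from the time the embryo had started to grow to the time it was longer than 0.5 of the seed. Its members are all transcripts that reached 1 RPKM in one or both of the libraries made at these stages, which gave 39729 of 178603 transcripts (22.2%). RPKM, the unit of the deposited table, counts the reads of a transcript per kilobase of its length and per 1000000 mapped reads. The libraries are called the early library (embryo started to grow) and the grown-embryo library (embryo past 0.5 of the seed length). A library of germinating seeds, which played no part in choosing the members, is used for their later level. All 3 were made from total RNA of whole seeds, and the labels give no treatment, genotype or age. Each stage had 1 library, so no difference below has a replicate check, and none carries a p-value.

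Seeds of this kind are shed with a small embryo that must grow inside the seed before germination, which is one part of the condition called morphophysiological dormancy. Abscisic acid, the hormone that maintains dormancy, and gibberellins, the hormones that promote germination, are the named subject of the study. A whole seed holds the embryo together with the storage tissue around it and the seed coat. As the embryo lengthens, its part of the seed's RNA can grow, so in these libraries a larger embryo and more RNA per cell cannot be told apart. The table identifies transcripts by assembly number and pairs none with a gene name or a sequence. The hormone genes were therefore not analysed here, and transcripts are described by their levels, their rank and the form of their identifier.

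A transcript was counted as changed if its log2(RPKM + 1) differed by at least 1 between the libraries and it reached at least 1 RPKM in the higher one. By this rule 10860 members (27.3% of those compared) were higher in the grown-embryo library and 2915 (7.34%) were lower. The other 25954 members (65.3%) differed by less. The median log2 difference over the members was 0.40, and the middle 50% of the members lay between -0.27 and 1.03. Rescaling the libraries by a trimmed mean of ratios took 0.20 off each log2 ratio and gave 8698 higher and 3885 lower (69.1% of the changed ones higher, against 78.8% as deposited). Equal sums of RPKM took off 0.22 and gave 8594 and 3998 (68.2% higher).

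Much of this count came from transcripts that only one of the libraries held at 1 RPKM or more. The grown-embryo library alone held 14039 members at that level, and 8623 of them (61.4%) passed the size rule. The early library alone held 5844, and 2121 of them (36.3%) passed. A member listed at 0 in one library passes the rule by construction, and there were 4330 such members in the early library and 1209 in the grown-embryo library. Their levels in the other library were alike and low, with a median of 1.23 RPKM in each case. Under 2 RPKM lay 87.5% of the former and 86.6% of the latter. Only 35 transcripts listed at 0 in the early library reached 10 RPKM in the grown-embryo library, and 8 showed the opposite pattern. In germinating seeds 3386 of the 4330 (78.2%) and 956 of the 1209 (79.1%) were listed at 0 as well. Of the 25954 members that changed by less, 10.8% were listed at 0 there. Those were more abundant, with medians of 2.21 and 2.30 RPKM in the compared libraries, so the shares are not matched for level. The germinating library also listed more transcripts at 0 in general. Ranked by level among all 178603, those at 0 began at rank 87583 there. They began at rank 134658 in the early library and 148344 in the grown-embryo library.

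Among the 19846 members with at least 1 RPKM in both libraries, 2237 (11.3%) were higher and 794 (4.0%) lower in the grown-embryo library, so 73.8% of the changed ones were higher. Their median log2 difference was 0.14, with quartiles of -0.23 and 0.56. Trimmed-mean rescaling gave 1722 higher and 1134 lower in this set, and equal sums gave 1690 and 1176. Median-of-ratios rescaling, which hardly shifted the ratios, gave 2228 and 793. Higher transcripts thus outnumbered lower ones also where both libraries had a value, by a smaller margin after trimmed-mean or equal-sums rescaling.

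The members just inside the minimum of 1 RPKM were like those just outside it. The 4078 transcripts whose higher value was from 1 up to 1.1 RPKM had medians of 0.33 RPKM in the early library and 1.02 RPKM in the grown-embryo library. The 5407 transcripts from 0.9 up to 1 RPKM had medians of 0.32 and 0.92 RPKM. Many members lay close to the size rule. On the higher side 2861 members had a log2 difference from 1 up to 1.1 and 1513 from 0.9 up to 1, and on the lower side the numbers were 917 and 590. A member listed at 0 in one library and barely above 1 RPKM in the other falls just inside the rule by construction. The larger numbers inside it are thus in part built in.

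The balance between higher and lower transcripts changed with abundance. Classed by the library in which each was higher, 31.1% of the 18026 members from 1 up to 2 RPKM stood higher in the grown-embryo library and 8.15% stood lower. The shares were 20.2% higher and 5.10% lower for the 3649 members from 10 up to 20 RPKM. They were 22.8% and 10.6% for the 622 members from 100 up to 300 RPKM. From 1000 RPKM upward the directions were even, with 16 of 55 transcripts higher and 16 lower. The median log2 difference was -0.01 in this top class and 0.45 in the class just below it, from 300 up to 1000 RPKM. Classed instead by the mean of both libraries, the 36 transcripts from 1000 RPKM upward split into 9 higher and 9 lower. After trimmed-mean or equal-sums rescaling these numbers were 7 higher and 10 lower of 37.

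**Figure D1:**
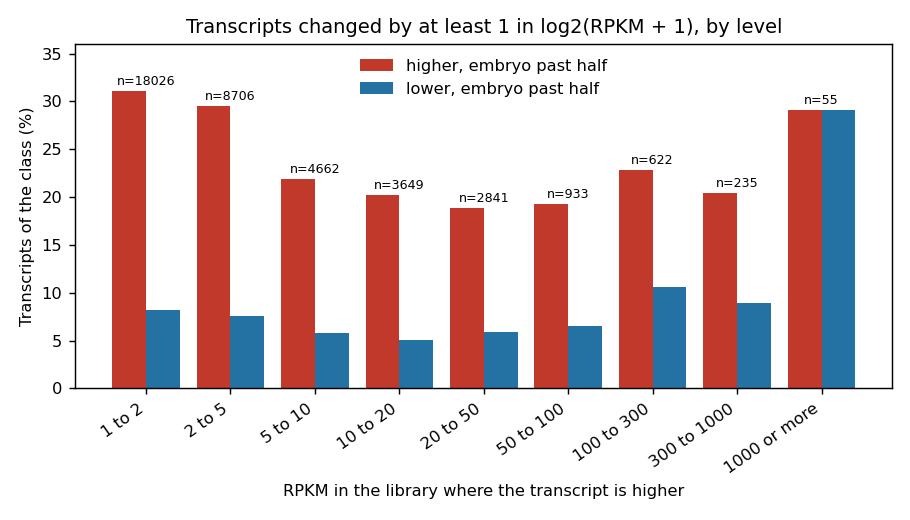
Share of transcripts (%) that were higher (red) or lower (blue) in the grown-embryo library by at least 1 in log2(RPKM + 1), by RPKM in the library where each transcript was higher; n is the number of transcripts in a class and each stage has 1 library. The red bars stand above the blue ones in every class up to 1000 RPKM, and both stand at 29.1% in the class of 1000 RPKM or more.

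The most abundant transcripts were partly replaced. Of the 10 most abundant in each library 3 were shared, of the 100 most abundant 67, and of the 1000 most abundant 754 (75.4%). Ranks within a library do not depend on scaling. The 33 transcripts that entered the list of 100 in the grown-embryo library had a median of 312 RPKM in the early library and 772 RPKM in the grown-embryo library. The 33 that left it had medians of 711 and 432 RPKM. Each list was picked from its own library, so a lower level of its members in the other library is in part a result of that choice. The germinating library was not used in the choice. There 23 of the 33 entering transcripts were among the 100 most abundant, with a median of 718 RPKM, and 1 of the 33 leaving ones, with a median of 248 RPKM. For the lists of 1000, 207 of 246 entering transcripts (84.1%) and 7 of 246 leaving ones (2.85%) were among the 1000 most abundant in germinating seeds.

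Of the 10 most abundant transcripts of the early library, 6 were lower in the grown-embryo library by the size rule, 4 changed by less and 0 were higher. The transcript ranked 2 had 6971 RPKM in the early library, 2004 RPKM in the grown-embryo library and 1170 RPKM at germination, with rank 31. The transcript ranked 3 had 4446, 1080 and 353 RPKM in the same order. The transcripts ranked 9 and 10 had 2797 and 2332 RPKM at first and 97.9 and 97.1 RPKM in germinating seeds. All 6 were again lower in germinating seeds than in the grown-embryo library. The 4 that changed by less were lower there as well, as were 14 of the 17 transcripts in either list of 10, so this was not particular to the 6. The transcript ranked 1 had a log2 difference of -0.51 and so did not pass the rule.

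Of the 10 most abundant transcripts of the grown-embryo library, 5 were higher than in the early library by the size rule and 5 changed by less. Those ranked 5 and 10 passed narrowly, with log2 differences of 1.17 and 1.11, and did not pass after trimmed-mean or equal-sums rescaling, which left 3 higher. The transcript ranked 3 there had 770 RPKM in the early library, where it ranked 53, then 4078 RPKM, then 9362 RPKM at germination and rank 2. The transcript ranked 4 had 459, 3890 and 4335 RPKM, and moved from rank 114 to rank 4 at both later stages. The transcript ranked 9 had 378, 2338 and 2535 RPKM. In germinating seeds 3 of these 5 were at or above their grown-embryo level and 2 were under it. These 2 had 3359 and 1854 RPKM in germinating seeds against 3555 and 2185 RPKM before, so they too stayed above their early levels of 1581 and 1012 RPKM.

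**Figure D2:**
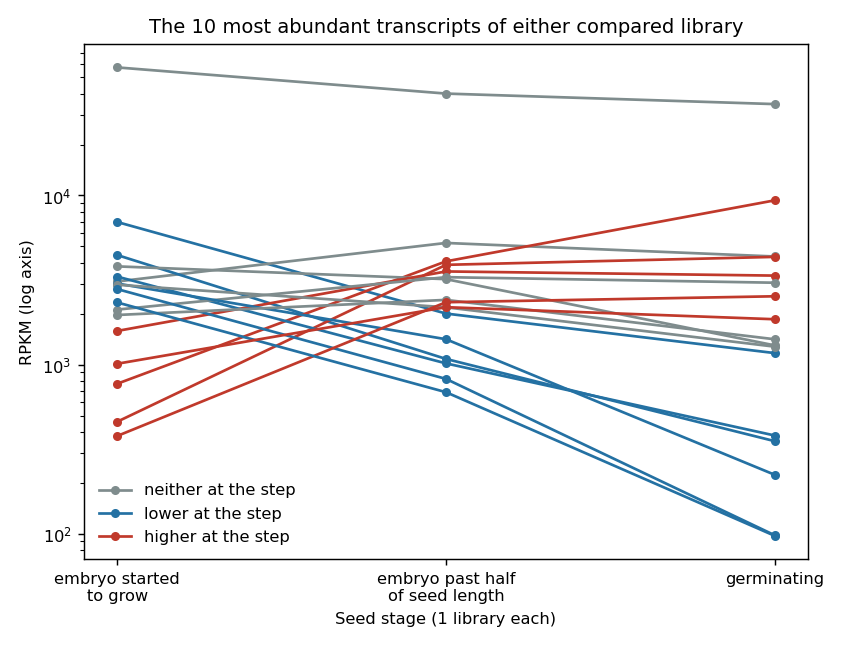
RPKM (log axis) of the 17 transcripts among the 10 most abundant of the early or the grown-embryo library, at each of the 3 seed stages; each line is 1 transcript, coloured by its call between the first pair of stages. The 6 blue lines go down again toward germination, and so do all grey lines (changed by less) over that step. The 5 red lines end between 1854 and 9362 RPKM, above where they began.

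Losses of RPKM were held by fewer transcripts than gains. Summed over all transcripts, values were greater in the grown-embryo library by 212766 RPKM in 94921 transcripts and smaller by 125123 RPKM in 67344 transcripts. The 724 largest gains made up 50% of the summed gain. The 96 largest losses made up 50% of the summed loss. The most abundant transcript alone accounted for 13.7% of the loss, with 17143 RPKM, whereas the largest single gain was 3431 RPKM, or 1.61%. Without the most abundant transcript, and with no rescaling, 212 transcripts held 50% of the loss. RPKM is divided by transcript length, so these sums are not shares of reads.

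**Figure D3:**
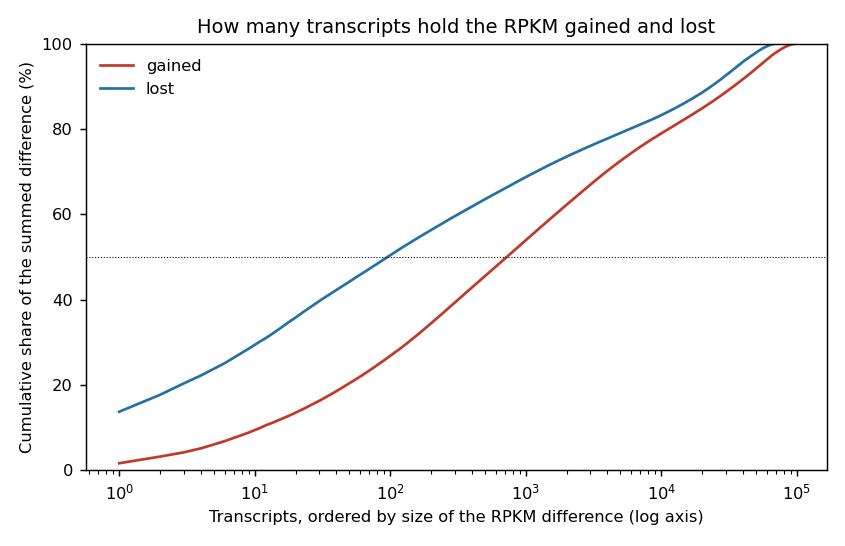
Cumulative share (%) of the summed RPKM difference between the libraries against the number of transcripts, ordered by size of the difference (log axis), for RPKM gained (red) and lost (blue) in the grown-embryo library. The blue line starts at 13.7% and crosses 50% at 96 transcripts, and the red line starts at 1.61% and crosses 50% at 724 transcripts.

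The 2 largest increases and 2 largest decreases in log2(RPKM + 1) were found in transcripts that the other library listed at 0. With a log2 difference of at least 4, this held for 18 of 96 higher and 2 of 6 lower transcripts. Among transcripts whose higher value was 10 RPKM or more, comp42673_c0_seq1 was listed at 0 in the early library and had 110 RPKM in the grown-embryo library and 13.9 RPKM in germinating seeds. The transcript comp40575_c0_seq1 was also listed at 0 in the early library and had 81.2 and then 3.65 RPKM. Both were thus highest in the grown-embryo library. Of the decreases, comp47715_c0_seq1 had 31.3 RPKM in the early library and comp50993_c0_seq1 had 21.4 RPKM, and both were listed at 0 in each of the later libraries. No fold is given for these, since the table holds no counts to set a floor.

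Large increases were more numerous than large decreases, and the former varied widely in their later level. Among the 8335 transcripts whose higher value was 10 RPKM or more, a log2 difference of at least 4 was found in 96 higher and 6 lower ones. With a difference of at least 3 the numbers were 282 and 33 of the same 8335. These counts are on the scale as deposited and were not recomputed after rescaling. Of the 96, 33 were at or above their grown-embryo level in germinating seeds, 26 were under it but at 1 RPKM or more, and 37 were under 1 RPKM. The levels of the 96 in germinating seeds ran from 0 to 1496 RPKM with a median of 3.06 RPKM, against a median of 40.0 RPKM in the grown-embryo library. The one with the third largest increase had 0.23 RPKM in the early library, 97.9 RPKM in the grown-embryo library and 0.24 RPKM in germinating seeds. The one with the seventh largest had 0.20, 66.9 and 65.6 RPKM, and so kept most of its level where the former did not.

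Across all members that reached 10 RPKM in either library, both kinds of changed transcript could be followed into the germinating library. The 1660 higher ones (19.9% of the 8335 in this set) had medians of 6.04 RPKM in the early library, 22.4 RPKM in the grown-embryo library and 27.6 RPKM in germinating seeds. The 518 lower ones (6.21%) had medians of 28.1, 9.08 and 5.79 RPKM. The 6157 that changed by less had 18.6, 20.5 and 21.5 RPKM. The order of the medians in germinating seeds was that of the grown-embryo library and the reverse of that in the early library. In the compared libraries the order is in large part set by the calls and the minimum of 10 RPKM. The reversal between these libraries is thus not a result, and only the germinating medians were free of the choice.

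In germinating seeds 1030 of the 1660 higher transcripts (62.0%) were at or above their grown-embryo level, and 325 (19.6%) were at or under their early level. Of the transcripts that changed by less, 51.0% were at or above their grown-embryo level. These shares turned with the scaling: after trimmed-mean rescaling they were 65.1% and 79.2%, and after median-of-ratios rescaling 68.0% and 71.7%, whereas equal sums gave 58.7% and 55.4%. Of the 518 lower transcripts, 440 (84.9%) were at or under their grown-embryo level, and this share lay between 69.8% and 82.1% under the 3 rescalings. At or under their early level were 510 of the 518, against 41.8% of those that changed by less. The lower ones were picked for a high early value and the higher ones for a low one, so their shares against the early level are in part a result of that choice. The calls and these shares use the same grown-embryo value, so an error in that library moves both, and its part in the shares was not tested.

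With at least 100 RPKM in either library, 206 members were higher (22.6% of 912) and 103 lower (11.3%). The higher ones had medians of 58.2, 183 and 279 RPKM in stage order, and 157 of them (76.2%) were at or above their grown-embryo level in germinating seeds. Of the 603 that changed by less, 304 (50.4%) were. After trimmed-mean rescaling the shares were 83.2% and 81.3%, after median-of-ratios rescaling 83.9% and 72.8%, and with equal sums 76.1% and 55.4%. The lower ones had medians of 201, 57.9 and 29.7 RPKM, and 98 of them were at or under their grown-embryo level in germinating seeds. Over all 10860 higher members, most of them weak, the median was 0.11 RPKM in the early library, 1.92 RPKM in the grown-embryo library and 0.07 RPKM in germinating seeds, where 4886 (45.0%) were listed at 0. The higher members as a whole thus had a lower median in germinating seeds than in the grown-embryo library, unlike the abundant ones. The 2915 lower members had medians of 1.98, 0.14 and 0.13 RPKM, and 1238 of them (42.5%) were listed at 0 in germinating seeds. Of the members that changed by less, which were more abundant, 10.8% were. At 10 RPKM or more the shares listed at 0 were 1.75% of higher, 2.90% of lower and 0% of the others. Zeros were common in the germinating library over all transcripts, where they began at rank 87583 of 178603. The shares at 0 over all members are thus not read as particular to the changed ones.

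**Figure D4:**
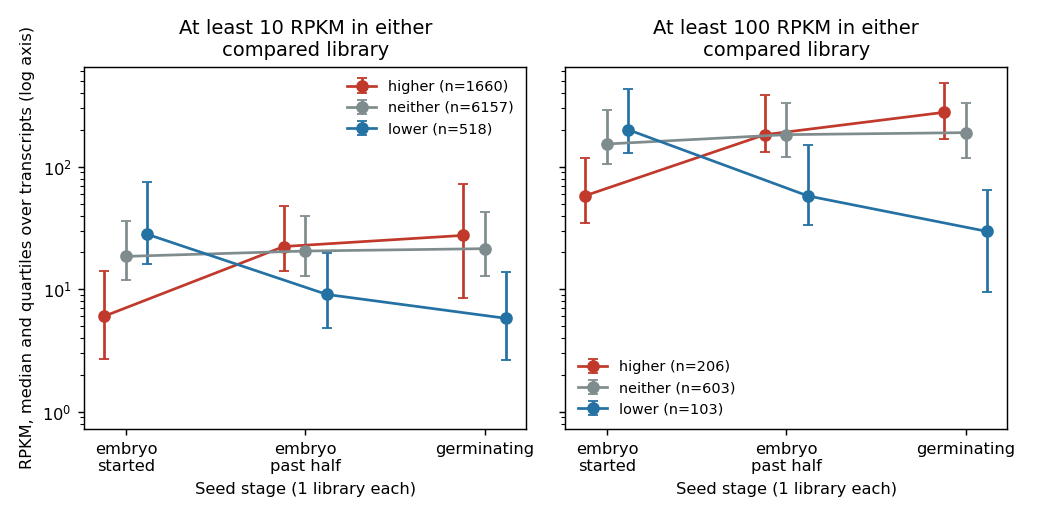
Median RPKM with quartiles over transcripts (log axis) at the 3 seed stages, 1 library each, for transcripts higher (red), lower (blue) or changed by less (grey) between the early and grown-embryo libraries, with at least 10 RPKM (left) or 100 RPKM (right) in either. The bars show the spread between transcripts, not between replicates; at 100 RPKM or more the red medians go from 58.2 to 183 to 279 RPKM and the blue ones from 201 to 57.9 to 29.7 RPKM.

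The members were unevenly placed along the numbering of the assembly, which the rule did not use. Component numbers from 10000 up to 60000 covered 45037 transcripts and held 33465 members, 84.2% of all. All 8335 members that reached 10 RPKM in either library lay there. The remaining 133566 transcripts, with lower or higher numbers, held 6264 members. Of these 6264, only 29 (0.463%) reached 1 RPKM in both libraries, against 59.2% of the members numbered from 10000 up to 60000. Their medians were 0.08 RPKM in the early library and 1.09 RPKM in the grown-embryo library, 99.6% stayed under 2 RPKM in both, and 78.0% were listed at 0 in germinating seeds. They supplied 3307 of the 10860 higher calls (30.5%) and 837 of the 2915 lower calls (28.7%). Without them 7553 higher and 2078 lower transcripts were left, and the share higher was 78.4%.

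**Figure D5:**
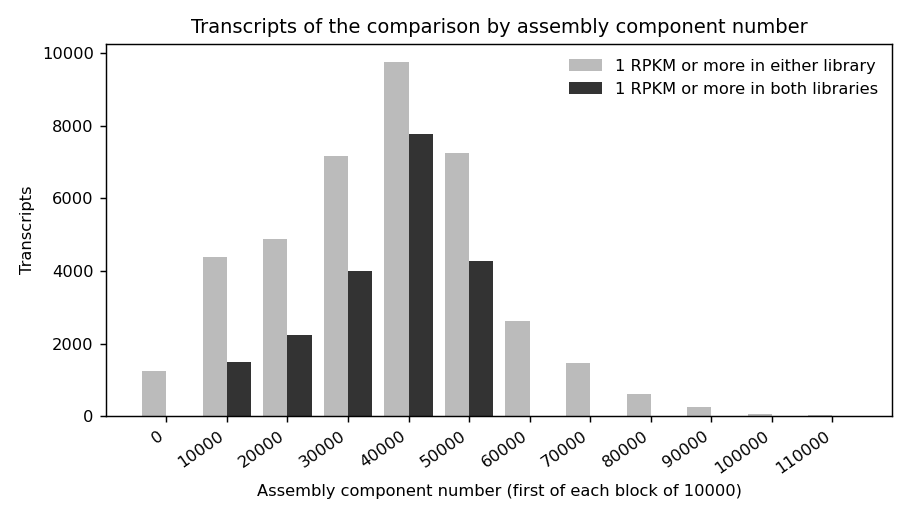
Number of transcripts that reached 1 RPKM in either library (grey) and in both libraries (black) by assembly component number, in blocks of 10000; blocks from 120000 upward are not drawn and hold 9 members or fewer each. The black bars are visible only from 10000 up to 60000, and grey bars without a visible black one stand on both sides.

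Identifiers also end in a sequence number, which, in the naming that de novo assemblers use for such identifiers, numbers the sequences written for a component. Among transcripts that reached 10 RPKM at one or both stages it was above 1 in 140 of the 518 lower ones (27.0%), in 291 of the 1660 higher ones (17.5%) and in 1189 of the 6157 that changed by less (19.3%). Over all members the shares were 13.3%, 9.59% and 20.8%, and among transcripts that were not members 1.54%. The lower transcripts thus stood above those that changed by less in the first set and under them over all members, and these shares were not tested.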

How the data were processed

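Total RNA from whole seeds was sequenced as paired-end Illumina libraries, 1 per stage, per the labels' protocols. The authors deposited RPKM values for assembled transcripts, printed to 2 decimals. R 3.1.0 is listed in the submitters' processing notes; for the assembler, aligner, counting rule, strand use and filters, tool names and settings were not given in the sources used here. Columns were matched to libraries by title and stages taken from the labels. The summed RPKM was 538942 in the early library, 626584 in the grown-embryo library and 615633 in the germinating library. Depth in reads is unknown. Of 11375 transcripts from 0.4 up to 1.2 RPKM in both compared libraries, 1699 (14.9%) had the same printed value, against 12 and 150 that differed by 0.01 RPKM in either direction, so the value of 1 counted read was nearly the same in both.

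Differences are of log2(RPKM + 1), which understates changes of weak transcripts. Scaling alternatives were median of ratios, a trimmed mean of log ratios (30% by ratio and 5% by level at each end) and equal sums, with the geometric mean of both compared libraries' factors held at 1. Python 3.11.15, pandas 2.3.3 and numpy 2.4.6 were used. The size rule was run on made-up values with set changes and no noise. This checks the code only, not how the rule behaves with single libraries or weak transcripts. Named transcripts are the 2 largest increases and 2 largest decreases among those whose higher value was 10 RPKM or more; transcripts given by rank, and the groups by component number, were picked after their values were seen. The members and lists were chosen with earlier results of these data known.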

Additional observations from a re-analysis of the deposited data

How the results depend on the processing

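In each pair of counts the first is higher and the second lower. A pseudocount of 0.1 gave 15604 and 5562, with 73.7% of the changed ones higher. A pseudocount of 5 gave 1597 and 396 (80.1% higher), and among members at 1 RPKM or more in both libraries 1070 and 331. A minimum of 10 RPKM gave 1660 and 518 (76.2% higher), and 545 and 239 where both libraries reached it. A size rule of 2 gave 1349 and 245 (84.6% higher), and 425 and 116 in both libraries. The share higher was 69.1% after trimmed-mean rescaling and 68.2% with equal sums. With the most abundant transcript left out it was 75.4%, from 11807 and 3861. In that setting each library was also scaled back up to its full sum of RPKM, so it is a rescaling too. Having no minimum left the counts as they were, since the size rule requires 1 RPKM. The restriction to component numbers 10000 up to 60000, added after seeing the data, kept the counts of higher and lower transcripts within 1.5 times. So did trimmed-mean rescaling (8698 and 3885), equal sums (8594 and 3998) and leaving out the most abundant transcript. Median-of-ratios rescaling shifted each log2 ratio between the compared libraries by only -0.004. Its counts (10659 and 2922) are thus nearly those of the deposited scale again and are no test of scaling. Of 140 recomputed values 0 changed direction, but many are counts, which have no direction to change. Comparisons between values were not scored in this way, and some turned. At 10 RPKM or more, 62.0% of higher transcripts and 51.0% of those that changed by less were at or above their grown-embryo level in germinating seeds. After trimmed-mean rescaling the shares were 65.1% and 79.2%. Higher transcripts stayed in the majority over all members in each setting run. The pseudocounts, the minimum and the size rule add or remove weak or small differences by construction; for the rescalings the cause was not tested. No paired analysis was possible because each stage had 1 library, and for the same reason no replicate could be left out. Values under 1 RPKM may rest on few reads.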
